A study of Mus musculus with 3 samples.

Results

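The cadherin superfamily and its catenin partners were examined in the early mouse kidney. Members were all genes of the array named as a cadherin, a cadherin-related protein, a protocadherin, a Fat, Dachsous (Dchs) or Celsr cadherin, or an alpha- or delta-class catenin, except Cdh5 and Cdh11. Of 57 such genes on the array, 48 had a value on all 3 arrays and are the members described here, out of 14047 genes measured in the same way. The other 9 lacked a value on at least 1 array.

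Each two-colour oligonucleotide array set 10.5 days post coitum (dpc) metanephric mesenchyme in channel 1 against 11.5 dpc metanephroi in channel 2. Both tissues were microdissected from normal CD1 mouse embryos, with both sexes pooled, and were hybridised as amplified RNA with no common reference. Arrays 1 and 2 were labelled red/green, and array 3 carried the dyes the other way round, green/red. Nothing in the labels says that the arrays came from separate dissections, so a p-value covers the array-to-array spread alone and that spread may be technical. At the earlier stage the tissue is the mesenchyme that will be invaded by the ureteric bud, and at the later stage the organ holds mesenchyme, the bud and the cells around them.

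Values are the authors' normalised log2 ratios of both channels. The labels leave the numerator unnamed, so a ratio is called positive or negative and neither side is given a stage. Wt1, a transcription factor of the metanephric mesenchyme, lay on the positive side at 1.78, 1.70 and 1.76 on arrays 1, 2 and 3. Crym, another gene of that mesenchyme, read 2.02, 1.82 and 1.89. Both were named for the smallest p of 15 measured mesenchyme genes, and they do not stand for that list. Of the 15, 5 were positive and 2 negative on every array, 8 had mixed signs, and the median was 0.14. Markers of the ureteric bud fell on both sides. Calb1, a calcium-binding protein of the bud, was positive at 1.27, 1.12 and 1.09, but of the 7 bud markers at an unadjusted p under 0.05 by limma 5 were negative, and the median of 22 was -0.04, so they give no orientation. Zic1, a transcription factor of the dorsal somite and neural tube, was negative at -3.43, -3.21 and -3.76. The table holds no intensities, so it was not possible to see which markers of a tissue were present, and no gene's level can be set against another's. In these bulk tissues fewer cells of a type and less RNA per cell cannot be told apart.

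Cadherins are membrane proteins whose extracellular repeats bind calcium and, usually, a like molecule on the neighbouring cell. Classical cadherins hold the actin cytoskeleton through catenins: beta-catenin and p120-catenin (Ctnnd1) bind the cadherin tail, and alpha-catenin (Ctnna1) links the complex to actin. In the kidney, mesenchymal cells rich in Cdh2 and Cdh11 become epithelial and take up Cdh6, Cdh1 and later Cdh16, so the family is widely used to follow the change from mesenchyme to epithelium. Protocadherins lack the catenin-binding tail and act mainly in recognition between cells. Fat, Dachsous and Celsr cadherins are giant proteins that orient cells within the plane of a tissue.

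The member with the clearest difference was Cdh16, kidney-specific or Ksp-cadherin, at a mean log2 ratio of 2.08. Cdh6, Pcdh12 and Pcdhb3 were also positive, and Cdh15, Ctnna1 and Pcdhga12 were negative, at an unadjusted p under 0.05 by limma, which tested the mean of the 3 arrays against 0. These 7 were 14.6% of the 48 members, against 19.6% of all genes. Positive calls made up 4 of the members, against 9.89% of all genes, and negative calls made up 3, against 9.69%. After Benjamini-Hochberg adjustment 0 members passed at 0.05, as did 0 of all genes, a share of 0%, although 2750 genes had an unadjusted p under 0.05. The members' means ran from -1.31 to 2.08 with a median of 0.01, and the median of all genes was -0.002. Of the members, 24 had a positive and 24 a negative mean, and of all genes 6999 and 7048.

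In 19 members, or 39.6%, every array had the same sign, against 45.5% of all genes. Of these, 10 were positive on every array, where 22.9% of all genes were, and 9 were negative on every array, where 22.5% were. The other 29 had arrays on both sides of 0. The median SD over arrays was 0.45 for the members and 0.34 for all genes. With 3 arrays an exact sign permutation cannot give a two-sided p below 0.25 for a single gene, so p-values are those of limma, which borrows the spread across all genes.

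Type I cadherins are the classical adhesion molecules of strong junctions, and 4 of the 5 measured had a negative mean, with a group median of -0.36. Cdh15, M-cadherin, is made by muscle precursors and acts in their fusion. Its log2 ratio was -1.10 on array 1, -0.95 on array 2 and -0.25 on array 3. All 3 arrays lay below 0, and array 3 was the closest to it. The mean was -0.77 ± 0.45 (SD, n = 3), a 1.70-fold difference, with a 95% confidence interval of -1.42 to -0.11, an unadjusted p of 0.0315 and an adjusted p of 0.215. The p was 0.146 without array 1 and 0.124 without array 2.

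Genes of somite, muscle and limb mostly lay on the same side as Cdh15. Of 19 such markers measured, 13 were negative on every array and 1 was positive on every array, with a list median of -0.78. At an unadjusted p under 0.05 by limma, 11 were negative and 1 was positive. Of all genes, 22.5% were negative and 22.9% positive on every array, and 9.69% were negative and 9.89% positive at that p. Besides Zic1, the homeodomain gene Irx5 had a mean of -3.35 ± 0.48. The contractile genes Acta1, at -4.96 ± 0.92, and Tnnc1, at -2.72 ± 1.04, were negative on every array. Genes of muscle precursors were less clear, and none of the following had an unadjusted p under 0.05 by limma. Myf5 was negative on every array, at -1.27, -0.47 and -0.26. Myog, Myod1 and Pax3 had arrays on both sides of 0, as did the contractile gene Actc1, with a mean of 0.43. The medians of the list were -1.27, -1.15 and -1.02 on arrays 1, 2 and 3. Their part in the Cdh15 ratio was not tested.

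Cdh2, N-cadherin, is the main cadherin of mesenchymal and neural cells. It read -0.60 on array 1, -0.06 on array 2 and -0.72 on array 3. The arrays were all below 0, with array 2 almost at it. The mean was -0.46 ± 0.35, with a confidence interval of -1.02 to 0.10, an unadjusted p of 0.0824 and an adjusted p of 0.313. Leaving out array 1, 2 or 3 gave means of -0.39, -0.66 and -0.33, with unadjusted p-values of 0.284, 0.0459 and 0.240. Cdh11, named above beside Cdh2 and no member here, lay on the opposite side. It read 0.50, 0.45 and 1.03 on arrays 1, 2 and 3, with a mean of 0.66 ± 0.32.

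Cdh1, E-cadherin, marks the ureteric bud and other epithelia. It read 0.03, -0.37 and 0.53 on arrays 1, 2 and 3, so that the arrays fell on both sides of 0. The mean was 0.07 ± 0.45, and the confidence interval ran from -0.59 to 0.72. Cdh3, P-cadherin of basal epithelia and placenta, was negative on every array at -0.12, -0.94 and -0.03, with a mean of -0.36 ± 0.50. Cdh4, R-cadherin, a cadherin of retina, brain and forming nephrons, read 0.45, -0.48 and -0.30, with arrays on both sides and a mean of -0.11 ± 0.49. None of Cdh1, Cdh3 and Cdh4 had an unadjusted p under 0.05.

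Type II cadherins give weaker and more selective contacts, and 5 of the 7 measured had a positive mean, with a group median of 0.31. The group's medians were 0.41, -0.08 and 0.35 on arrays 1, 2 and 3. On array 2, 3 of the 7 were positive, and 2 of the 7 kept one sign on every array. Cdh6, K-cadherin, is found in the early nephron, from the induced mesenchyme to the proximal tubule. Its log2 ratio was 0.44 on array 1, 0.63 on array 2 and 0.67 on array 3. The arrays lay close together and all above 0. The mean was 0.58 ± 0.13, a 1.49-fold difference, with a confidence interval of 0.18 to 0.98, an unadjusted p of 0.0167 and an adjusted p of 0.181.

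The Cdh6 result rested on 1 of its 2 probes. The other had no value on array 2 and read -1.49 on array 1 and 0.48 on array 3, on opposite sides. With both probes averaged the mean was 0.23 and the unadjusted p was 0.502. With the complete probe alone, leaving out array 1, 2 or 3 gave a p of 0.0694, 0.0774 or 0.0517, while the mean stayed between 0.53 and 0.65.

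The highest mean in this group was that of Cdh24, at 1.06 ± 1.34, but it came from array 2. Cdh24 read 0.35 on array 1, 2.60 on array 2 and 0.23 on array 3. The arrays were all positive, and the confidence interval of -0.57 to 2.68 took in 0. Cdh18 had the lowest mean, -0.31 ± 0.66, with 0.41, -0.89 and -0.45. Cdh9, Cdh10, Cdh20 and Cdh22, which are best known from the nervous system, had means from -0.06 to 0.68 and arrays on both sides of 0. The 3 probes of Cdh10 did not share a sign, with means of -0.01, 0.27 and -0.16.

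The remaining cadherins have short or unusual tails, and all 5 measured had a positive mean, with a median of 0.48. Of these, 4 were positive on every array, where 22.9% of all genes were. Cdh16 is a cadherin of the basolateral membrane of kidney tubules and of the Wolffian duct and its branches, with a tail too short to hold beta-catenin. Its log2 ratio was 2.06 on array 1, 1.79 on array 2 and 2.38 on array 3. The arrays were all far above 0, and the highest was that of the other dye order. The mean was 2.08 ± 0.30, a 4.22-fold difference, with a confidence interval of 1.56 to 2.59 and an unadjusted p of 0.000435 by limma. The adjusted p was 0.149, the smallest that any gene reached, but many genes shared that value, Calb1, Dcx and Tmtc2 among them. By mean, Cdh16 stood at rank 33 from the top of 14047 genes, and by p at rank 28, with array 3 as deposited. With the sign of array 3 turned its mean was 0.49 with an unadjusted p of 0.646, and the ranks were 1565 and 9470. Its unadjusted p stayed under 0.05 when array 1, 2 or 3 was left out, at 0.00525, 0.00219 and 0.00252.

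Genes of the ureteric bud epithelium did not share one sign with Cdh16. Of 22 measured, 7 were positive and 8 negative on every array, where 22.9% and 22.5% of all genes were. The list's median was -0.04. At an unadjusted p under 0.05, 2 were positive and 5 were negative, or 31.8%, against 19.6% of all genes. Calb1 was on the side of Cdh16, and Cldn6, a tight junction claudin of embryonic epithelia, was on the other at -1.01 ± 0.14. The list's median on each array ran from -0.13 to -0.04. The 15 measured genes of the metanephric mesenchyme had a median of 0.14, with 5 positive and 2 negative on every array, against the same shares of all genes. The part of either list in the Cdh16 ratio was not tested.

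Cdh17 is the closest relative of Cdh16 and the cadherin of intestinal epithelium. It was positive on every array, at 0.70, 0.23 and 0.44, with a mean of 0.46 ± 0.24 and an unadjusted p of 0.0525. Cdh13, T-cadherin, is held in the membrane by a lipid anchor and has no tail at all. It read 0.22, 0.48 and 0.75, all above 0, with a mean of 0.48 ± 0.27 and an unadjusted p of 0.0522. Cdhr4, a cadherin-related gene, had the narrowest spread of the 3, at 0.28, 0.52 and 0.33, with a mean of 0.38 ± 0.13 and an unadjusted p of 0.0592. Cdhr5, a protein of the brush border, read 1.58 and 1.11 on arrays 1 and 2 but -0.23 on array 3, so that the dye orders lay on opposite sides.

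**Figure D1:**
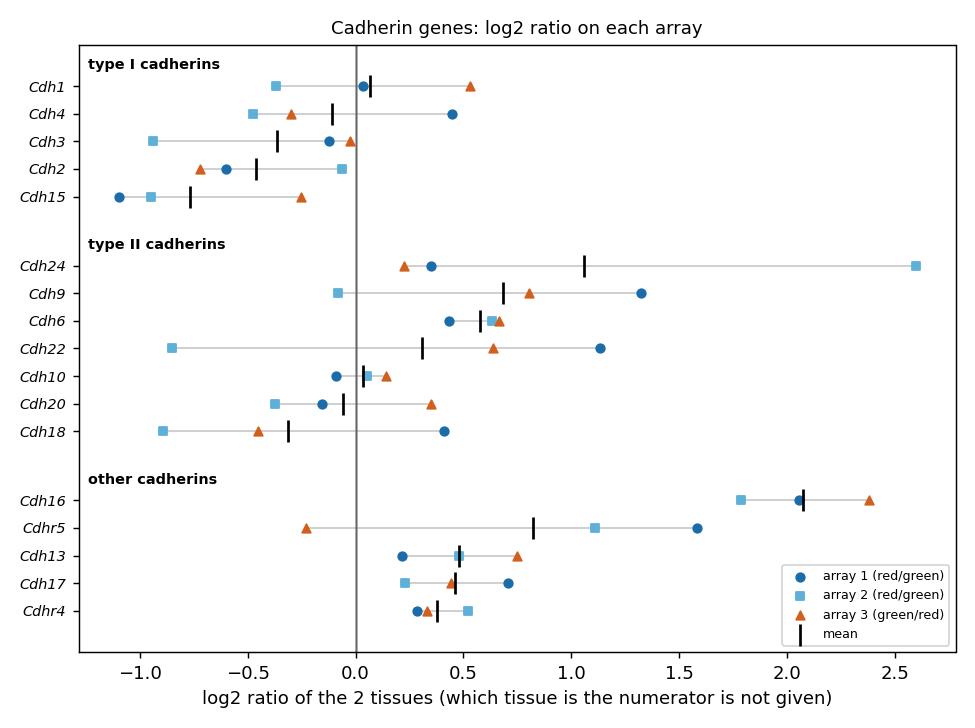
Log2 ratio of each measured cadherin gene on arrays 1, 2 and 3 (points; dye order in the key) with the mean of the 3 arrays (black tick), sorted by mean within type I, type II and other cadherins. Cdh16 stands apart between 1.79 and 2.38, Cdh6 lies between 0.44 and 0.67, and Cdh15 is the lowest of the type I cadherins with a mean of -0.77.

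Non-clustered protocadherins are coded by separate genes and act in cell sorting and migration. Of the 6 measured, 4 had a negative mean, and the median of the means was -0.51. The arrays differed, with group medians of -0.30, -0.27 and 0.55 on arrays 1, 2 and 3. On array 3, 4 of the 6 were positive. Pcdh12, also called VE-cadherin 2, is known from endothelium and placenta. Its log2 ratio was 0.87 on array 1, 0.91 on array 2 and 0.71 on array 3. The arrays were close together and far above 0. The mean was 0.83 ± 0.11, a 1.78-fold difference, with a confidence interval of 0.43 to 1.22, an unadjusted p of 0.00469 and an adjusted p of 0.157. Leaving out array 1, 2 or 3 gave an unadjusted p of 0.0436, 0.0307 or 0.0127.

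Endothelial markers mostly lay on the side opposite to Pcdh12. Of 16 measured, 8 were negative and 1 was positive on every array, with a median of -0.25 and array medians of -0.34, -0.35 and -0.23. At an unadjusted p under 0.05 by limma, 5 were negative and 1 was positive. Over all genes the shares on every array were 22.5% negative and 22.9% positive, and at that p they were 9.69% and 9.89%. The claudin Cldn5 had -1.12 ± 0.31 and the transcription factor Sox17 had -1.02 ± 0.31. Cdh5, VE-cadherin, the defining cadherin of endothelium and no member here, read -0.08, -0.42 and -0.03.

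Pcdh18 and Pcdh10, delta-2 protocadherins that recruit actin regulators, were negative on every array. Pcdh18 read -0.56, -0.22 and -1.11, with array 3 the lowest. Its mean was -0.63 ± 0.45, with a confidence interval of -1.28 to 0.02 and an unadjusted p of 0.0541. The p was 0.0415 after median centring, 0.0223 with a dye term and 0.0473 without array 2, but 0.149 without array 1, 0.128 without array 3, where the mean was -0.39, and 0.135 with unmoderated variance. Pcdh10 read -0.60, -0.09 and -0.45, with a mean of -0.38 ± 0.26. Pcdh8, a protocadherin of the paraxial mesoderm, had probes of opposite sign, at 0.59 and -0.40.

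Pcdh17 and Pcdh7 had by far the widest spread. Pcdh17 read -0.05 on array 1, -6.36 on array 2 and 4.47 on array 3. Arrays 2 and 3 lay far out on opposite sides, so that the mean of -0.65 ± 5.44 carries no direction. Pcdh7 read -1.02, -4.26 and 1.85, and of its 2 probes the first had 3.30 and the second 0.40 on array 3, against -2.60 and -5.92 on array 2. In both genes array 2 was the lowest and array 3 the highest. The log2 ratio reached a size of 2 on some array in 5 members, namely Pcdh17, Pcdh7, Celsr1, Cdh24 and Cdh16, or 10.4%, against 8.69% of all genes. Of these 5, only Cdh16 kept its size across the arrays.

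Clustered protocadherins are coded in the Pcdha, Pcdhb and Pcdhg gene clusters, whose many isoforms give single neurons an identity. The 17 measured had a median of 0.09, with 9 positive and 8 negative means. Their exons are much alike, and the probe sequences were not used here, so a ratio may hold signal from several isoforms. Pcdhb3 was positive on every array, at 0.61, 0.36 and 0.91. Its mean was 0.63 ± 0.28, a 1.54-fold difference, with a confidence interval of 0.13 to 1.12, an unadjusted p of 0.0251 and an adjusted p of 0.20. The p was 0.109 without array 1 and 0.0697 without array 3.

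Pcdhga12 was negative on every array, at -0.87, -0.72 and -0.39. Its mean was -0.66 ± 0.24, a 1.58-fold difference, with a confidence interval of -1.13 to -0.19, an unadjusted p of 0.0184 and an adjusted p of 0.184. The p was 0.116 without array 1 and 0.0801 without array 2. Pcdha6 at 0.46 ± 0.42 and Pcdhb4 at -0.29 ± 0.10 also kept one sign, and the other 13 had arrays on both sides of 0. Pcdhb15 had the lowest mean, -0.75 ± 1.68, from -1.59 and -1.84 on arrays 1 and 2 and 1.19 on array 3.

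That split by dye order recurred across the clusters. Of the 17 genes, 14 were positive on array 3, but 6 were on array 1 and 5 on array 2. Negative values on arrays 1 and 2 with a positive value on array 3 were found for 7 of the 17, and for 14 of all 48 members, or 29.2%, against 10.2% of all genes. The 7 were Pcdha7, Pcdhb1, Pcdhb2, Pcdhb7, Pcdhb8, Pcdhb10 and Pcdhb15. The split was not particular to the members. Among the partner and marker lists it was found for 4 of 12 desmosome genes, or 33.3%, and 3 of 8 red cell genes, or 37.5%. In the other lists its share ran from 0% to 15.4%. The reverse, positive on arrays 1 and 2 and negative on array 3, was found for 2 members, Pcdhb21 and Cdhr5, against 15.5% of all genes. The member medians were -0.09, -0.22 and 0.40 on arrays 1, 2 and 3, while those of all genes were 0.04, 0.04 and -0.06. Array 3 minus the mean of arrays 1 and 2 had a median of 0.40 over the members and -0.10 over all genes. Since array 3 alone has its dye order, the dye and that array cannot be told apart. If array 3 was deposited with its sign still to be turned, the 14 members would be negative on every array and the 2 positive on every array. As deposited, Wt1, Crym and Zic1 kept their sign and nearly their size on array 3. They were named for a small p with array 3 as deposited, so their agreement cannot decide its direction. Of all genes, 19.6% had an unadjusted p under 0.05 by limma as deposited, against 5.55% with array 3 turned.

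**Figure D2:**
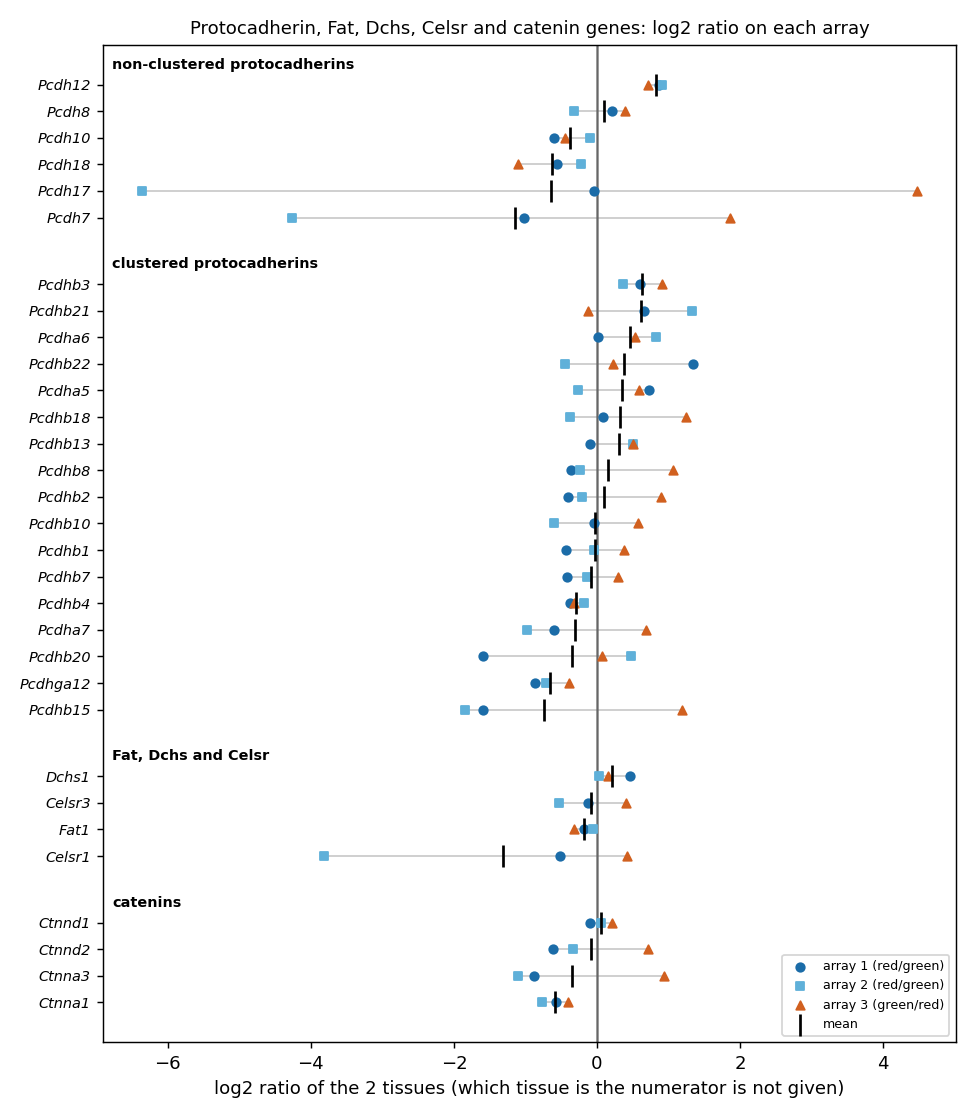
Log2 ratio of each measured protocadherin, Fat, Dchs, Celsr and catenin gene on arrays 1, 2 and 3 (points; dye order in the key) with the mean (black tick), sorted by mean within groups. Pcdh12 has its 3 points together between 0.71 and 0.91, Pcdh17 spans -6.36 to 4.47, and array 3 lies to the right of 0 for 14 of the 17 clustered protocadherins.

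**Figure D3:**
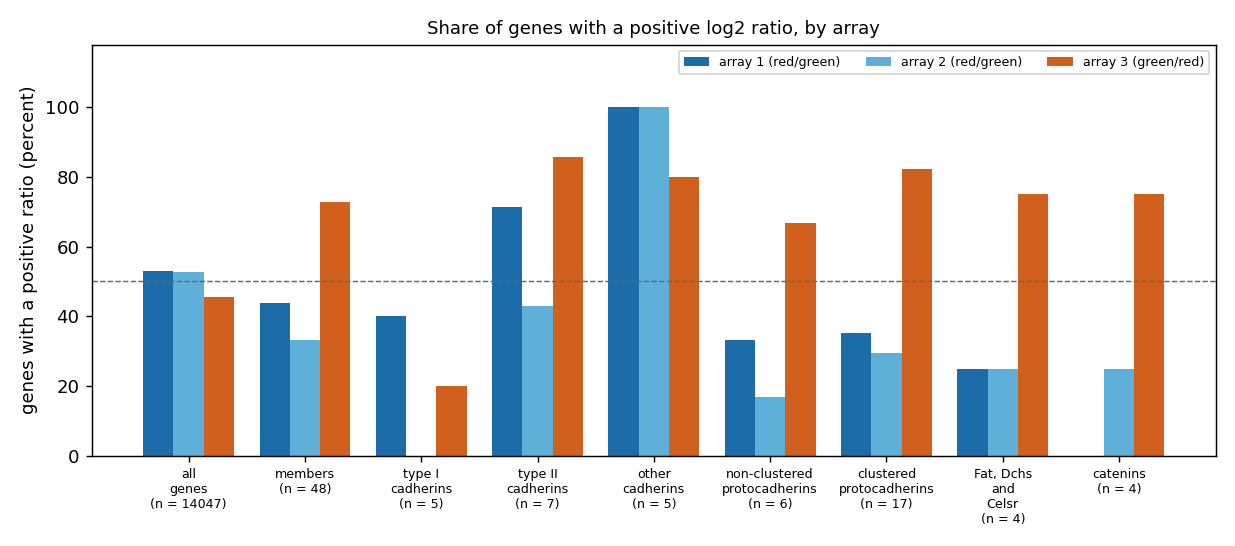
Percent of genes with a positive log2 ratio on each array, for all genes, all members and each group (n under the names); the dashed line is at 50 percent. Over all genes the shares are 53.0, 52.7 and 45.5 percent on arrays 1, 2 and 3, and over the members they are 43.8, 33.3 and 72.9 percent.

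Fat, Dachsous and Celsr cadherins act in planar polarity, and Dchs1 acts with Fat4 in the kidney to limit the nephron progenitor pool. Dchs1 was positive on every array, at 0.47, 0.03 and 0.16, with a mean of 0.22 ± 0.23 and a confidence interval of -0.24 to 0.68. Fat1, which acts at the podocyte junction, was negative on every array, at -0.18, -0.06 and -0.32, with a mean of -0.19 ± 0.13 and a confidence interval of -0.59 to 0.22. Both of these limma intervals took in 0, although the mean of Fat1 was larger than its own SD. Celsr1, a core planar polarity cadherin of branching epithelia, read -0.52, -3.82 and 0.42, and its mean of -1.31 ± 2.22, the lowest of the members, came from array 2. Celsr3, a cadherin of axon tracts, read -0.13, -0.52 and 0.41. Celsr2, measured on arrays 1 and 3 alone, read 0.21 and 0.20.

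Among catenins, Ctnna1, the alpha-catenin of most tissues, was negative on every array. It read -0.57 on array 1, -0.76 on array 2 and -0.41 on array 3, with no array near 0. The mean was -0.58 ± 0.18, a 1.49-fold difference, with a confidence interval of -1.01 to -0.15, an unadjusted p of 0.0204 and an adjusted p of 0.188. The p was 0.105 without array 1 and 0.0945 without array 2. Ctnnd1, p120-catenin, which keeps cadherins at the membrane, had a mean of 0.06 ± 0.15 from -0.09, 0.06 and 0.21, although its 2 probes had means of -0.09 and 0.21. Ctnnd2, a delta-catenin of neurons, and Ctnna3, the alpha-catenin of heart, were both negative on arrays 1 and 2 and positive on array 3. Ctnna3 read -0.88, -1.10 and 0.94.

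The 9 genes without a value on every array were Cdh8, Cdh23, Cdhr3, Celsr2, Ctnna2, Pcdh1, Pcdh9, Pcdh15 and Pcdhb16. All but Pcdhb16 lacked array 2 alone, and Pcdhb16 had array 1 alone. Cdhr3 was negative on both arrays that measured it, at -1.09 and -0.33. Ctnna2, the neural alpha-catenin, read 1.55 on array 1 and -0.89 on array 3, and Pcdh15, a protein of hair cell tip links, read -0.68 and 1.56.

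Leaving out array 1 left 2 members, Cdh16 and Pcdh12, at an unadjusted p under 0.05 by limma, or 4.17%, against 8.23% of all genes. Without array 2, 8 members passed, or 16.7%, against 10.3% of all genes. Without array 3, 10 passed, or 20.8%, against 21% of all genes. Array 3 was taken as already turned to the direction of the others, since its ratios correlated above 0 with theirs across 19660 probes. The Pearson correlations were only 0.05 with array 1 and 0.01 with array 2, while arrays 1 and 2 correlated at 0.32. Over all genes, arrays 1 and 2 shared a sign in 71.1%, arrays 1 and 3 in 60.9%, and arrays 2 and 3 in 59%. With the sign of array 3 turned, none of the 7 called members kept an unadjusted p under 0.05. Another 6 members had one, or 12.5%, against 5.55% of all genes. Of these, 5 were negative, or 10.4% of the members against 2.47% of all genes, and 1 was positive, against 3.08%. The negative ones were Pcdhb15 with a mean of -1.54 and an unadjusted p of 0.00209, Ctnna3 with -0.97 and 0.00717, Pcdha7 with -0.76 and 0.0209, Pcdh7 with -2.38 and 0.0219, and Pcdh17 with -3.63 and 0.0420. The positive one was Cdhr5 with 0.98 and 0.0386. The smallest adjusted p of a member was then 0.621. All calls in the text therefore hold for array 3 as deposited.

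**Figure D4:**
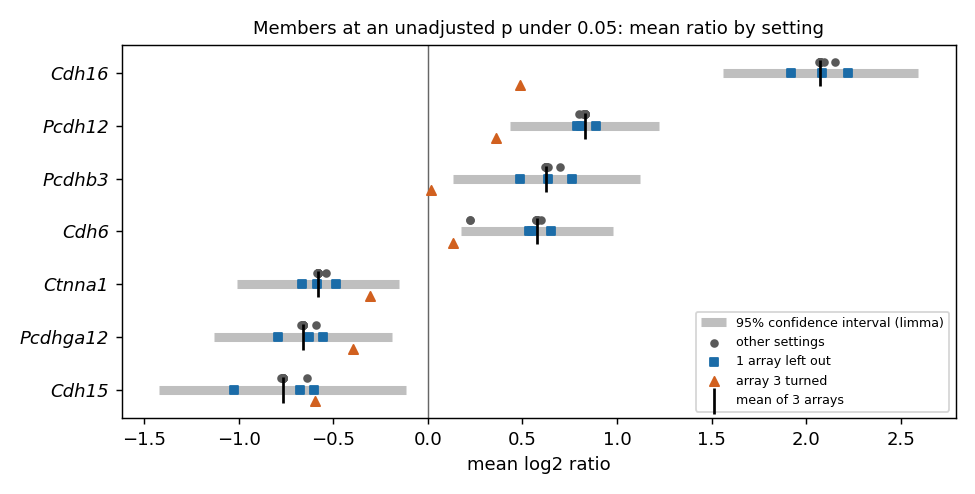
Mean log2 ratio of the 7 members at an unadjusted p under 0.05, with limma's 95% confidence interval (grey bar), the means with 1 array left out (squares), with array 3 turned (triangles) and under the other settings (dots). Cdh16 lies between 1.92 and 2.22 with 1 array left out and at 0.49 with array 3 turned, and no member changes side.

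Partner genes of the cadherins were taken from lists drawn up with earlier results known, the genes named from them were chosen mainly by p, and 0 of them passed adjustment by limma. Of 23 measured genes listed for the adherens junction, 1 was positive and 4 were negative at an unadjusted p under 0.05. That is 21.7%, against 19.6% of all genes, and the median was 0.06. Ctnnb1, beta-catenin, was positive on every array but close to 0, at 0.23, 0.16 and 0.02, and Jup, gamma-catenin, read -0.37, -0.49 and 0.48. The positive gene was Tjp1, the scaffold ZO-1, at 0.55 ± 0.24. The negative genes were the actin cross-linker gene Actn4 at -0.74 ± 0.24, Nectin2, an immunoglobulin-like adhesion gene, at -1.11 ± 0.56, Ctnnbl1 at -0.75 ± 0.33, and the LIM protein gene Ajuba at -1.79 ± 1.40. Ctnnbl1 is similar to catenins by name but acts in the spliceosome. It is no gene of the junction, although the list's 23 genes, its 4 negative calls and the 21.7% include it.

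Desmosomes use their own cadherins, and 1 of 12 measured genes had an unadjusted p under 0.05, Dsg1a, a desmoglein of skin, at 0.74 ± 0.19. That is 8.33%, against 19.6% of all genes, and the list's median was 0.02. By array, the desmosome medians were -0.53, -0.16 and 0.38 on arrays 1, 2 and 3. Among 18 repressors of Cdh1 and other genes of epithelial-mesenchymal transition, 2 were positive and 3 negative, or 27.8%, against the same 19.6%, and the median was 0.06. Twist1 at -0.73 ± 0.31 and Twist2 at -0.94 ± 0.28, mesodermal transcription factors able to repress Cdh1, were negative on every array, as was Tcf3 at -0.62 ± 0.22. Foxc2, a factor of kidney and paraxial mesoderm, was positive at 0.94 ± 0.08, as was Klf4 at 1.15 ± 0.69. Cdh1 itself had arrays on both sides of 0.

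Of 32 genes of planar polarity and of the Hippo pathway, which lies downstream of Fat cadherins, 1 was positive and 4 were negative, or 15.6%, against 19.6% of all genes, with a median of -0.17. Prickle2 was positive at 0.86 ± 0.24. The core polarity gene Vangl2 at -0.58 ± 0.18, the Hippo regulator Nf2 at -0.60 ± 0.06, Dvl2 at -0.60 ± 0.36 and Ccn2, a target of YAP, at -1.03 ± 0.22 were negative.

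Cadherins are modified and cut on their way to and at the surface, and 3 of 17 measured genes of this kind were positive and 2 negative at an unadjusted p under 0.05, or 29.4%, against 19.6% of all genes, with a median of 0.27. The 3 positive genes encode members of a single family, the TMTC enzymes that attach O-linked mannose to the extracellular repeats of cadherins. Tmtc2 read 1.21 on array 1, 1.36 on array 2 and 1.51 on array 3. Its mean was 1.36 ± 0.15, with an unadjusted p of 0.000923 and an adjusted p of 0.149. Tmtc4 read 0.79, 0.98 and 0.94, and Tmtc3 read 0.81, 1.01 and 0.67, with means of 0.90 ± 0.10 and 0.83 ± 0.17. All 3 measured members of this enzyme family were on the side of Cdh16 on every array, as were 22.9% of all genes, but they were named for their p. The negative genes were Gipc1, a trafficking adaptor, at -1.81 ± 0.59 and Aph1a, a subunit of the gamma-secretase that cuts cadherins, at -0.59 ± 0.20.

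**Figure D5:**
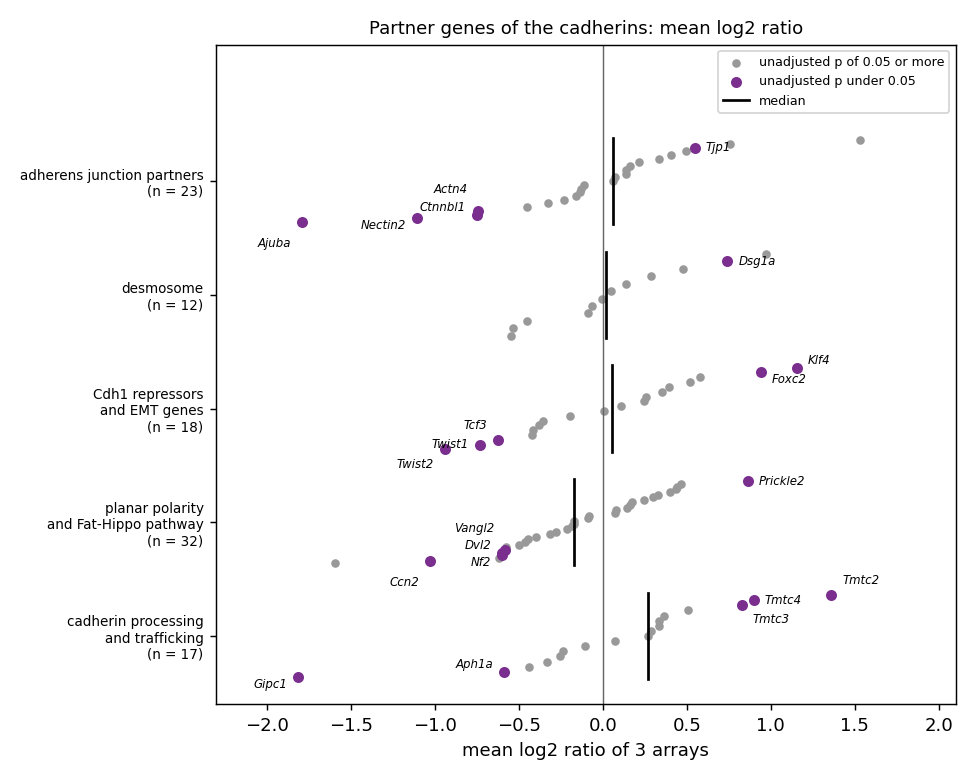
Mean log2 ratio over 3 arrays of each measured partner gene in 5 lists (points, spread vertically by rank), with genes at an unadjusted p under 0.05 named and the list's median as a black line. Medians lie between -0.17 and 0.27, and Tmtc2, Tmtc3 and Tmtc4 lie between 0.83 and 1.36.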

How the data were processed

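Per the labels' descriptions, the authors scanned images with Imagene 5.5 and, in R, applied a lowess per print tip followed by a normalisation across arrays. A lowess span of 20% and a floor of 10 for the control channel are also given there. What they deposited are log2 values of a ratio whose lowest value is 0.01. They were used as given, and intensities, and so signal over background, were not analysed here. Genes were named from the platform annotation. Of 21918 gene probes, 16656 had 1 symbol, 137 several and 5125 none, and the 784 control and blank spots were left out. Probes of a gene with a value on all 3 arrays were averaged, so that every array used the same probes. A two-sided test of the mean against 0 used limma 3.58.1 (lmFit, eBayes; R 4.3.3), fitted on all 14047 genes with Benjamini-Hochberg adjustment at 0.05, and the script was first tested on simulated data. SDs are over arrays. The number of arrays limits the precision. Plots used Matplotlib 3.10.9 in Python 3.11.15. Alternatives were centring, scaling, a dye term, array 3 turned, other probe and value rules, other variances and each array left out.

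Members and lists were chosen with earlier results of these data known. Genes named were a set of members known in the kidney, every member at an unadjusted p under 0.05 and, in each group, those with the highest mean, the lowest mean and the largest SD, plus up to 4 genes of each partner list and the 2 of each marker list with the smallest p. Other genes were chosen after their values were seen, among them Ajuba, Klf4, Dvl2, Aph1a, Cdh9, Cdh10, Cdh13, Cdh17, Pcdh8, Pcdh10 and the members split by dye order. Acta1, Tnnc1, Actc1, Myf5, Myog, Myod1 and Pax3 were chosen in the same way. Markers of stroma, neurons, red cells and macrophages were also listed, with 12, 13, 8 and 9 measured genes and medians of 0.61, -0.19, -0.06 and 0.27. Their genes with the smallest p had means of -2.46 for Dlk1 and 1.56 for Foxd1 (stroma), 1.40 for Dcx and -0.60 for Tubb3 (neurons), -1.10 for Klf1 and -0.35 for Epor (red cells), and 0.70 for Tyrobp and 0.81 for Lyz2 (macrophages).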

Additional observations from a re-analysis of the deposited data

How the results depend on the processing

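At an adjusted p of 0.05 the count of members was 0 under every alternative run, which shows little about stability in a design of 3 arrays. The count at an unadjusted p ranged from 2 to 10 with an array left out (7 with all). That is 4.17% to 20.8% of the members, where the share of all genes ranged from 8.23% to 21%. The count of members with one sign on every array ranged from 25 to 35 (19 with all), since fewer arrays have to share a sign. The other settings kept both counts within 1.5 times and moved the median of the members by less than its SD over arrays. That limit is wide and shows little, since the members' medians were -0.09, -0.22 and 0.40 on arrays 1, 2 and 3. With an array left out the median of the members ran from -0.20 to 0.23, on both sides of 0. It was 0.12 with a dye term and -0.08 with array 3 turned. All 7 called members kept their side under all settings, but 22 of their 91 alternative values were past the threshold no longer, 7 of these with array 3 turned. Averaging all probes with any value was chosen after seeing the data. Each array held both tissues, so the test of the log2 ratio against 0 already compared them within each array.

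With array 3 turned, 15 of the 48 members changed side, or 31.2%, against 28.9% of all genes. All 15 were among the 41 uncalled members. The 6 of these named by the rule went to -0.29 for Cdh1, 0.018 for Cdh2, 0.090 for Cdh4, -0.084 for Ctnnd1, 0.026 for Fat1 and 0.11 for Pcdh18, and the others to means from -0.55 to -0.018. The first probe alone gave -0.089 for Ctnnd1 and 0.10 for Pcdh7, whose probes disagreed. A dye term gave 0.63 for Pcdh17. With an array left out, Cdh1 ranged from -0.17 to 0.28, Cdh4 from -0.39 to 0.074, Ctnna3 from -0.99 to 0.033, Ctnnd1 from -0.018 to 0.14, Pcdh17 from -3.20 to 2.21 and Pcdh7 from -2.64 to 0.42. Signal over background is unknown here, so no dim spots could be removed.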
